A study of Mus musculus with 2 samples.

Results

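The barcodes described here are 613 cell barcodes of the library sorted for high surface CD9 that passed the quality filter and held less than 1000 CPM of Malat1, a long noncoding RNA that stays in the nucleus. CPM is the number of unique molecular identifiers (UMIs, 1 per captured transcript) of a gene per 1000000 UMIs of the same barcode or summed set. Barcodes passed with 500 or more genes, 1000 or more UMIs and a mitochondrial share of UMIs no higher than 20%, which left 5092 barcodes in this library and 7642 of 8582 in the 2 libraries together. The 613 barcodes, called Malat1-poor below, were therefore 12.04% of the kept barcodes of their library (95% exact Clopper-Pearson interval 11.16 to 12.96, counting error only). They were compared with 3910 kept barcodes of the same library that held at least 1000 CPM of both Malat1 and Vim, called the comparison barcodes. The members were chosen by their Malat1 level in these same data, so every difference between the sets is a description of 1 library and carries no test.

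The study profiled pancreatic ductal adenocarcinoma of mice with droplet sequencing of transcript 3′ ends, in 1 whole-tumour library and 1 library of the fraction sorted as Cd9 Hi. Both libraries came from mice carrying Pdx1-Flp, which puts Flp recombinase under a promoter active in the pancreas, together with Trp53frt/frt, from which Flp deletes the tumour suppressor. The mice further carried Rosa26FSF-creER, a tamoxifen-dependent Cre that Flp switches on, and Rosa26mTmG, a reporter in which Cre replaces membrane Tomato with membrane GFP. Tumours were dissociated for an hour at 37 °C with collagenase and then with TrypLE, and live, DAPI-negative cells were sorted on GFP or CD9. How many animals went into each library, and their age, is not stated in the labels. The libraries held 120451299 UMIs in 5500 barcodes (CD9hi) and 48287984 UMIs in 3082 barcodes (whole tumour), and 2 barcode sequences occurred in both, 0 of them among the Malat1-poor barcodes. The series' design text speaks of live GFP-positive cells, but the GFP feature had 0 UMIs in both libraries and TdTomato had 10 and 6, so these features could not be used to check the sort. Because a group had 1 library, barcodes are not replicates, and the intervals given below are exact and cover counting error only.

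Messenger RNAs are made and spliced in the nucleus and are then exported to the cytoplasm, where they last for very different times. Malat1, Neat1, Xist and Meg3 are noncoding RNAs found mostly in the nucleus, and some protein-coding transcripts wait there with introns not yet removed. Immediate early mRNAs such as Fos and Jun, and cytokine mRNAs such as Csf2, are made in bursts and decay quickly, in part through AU-rich stretches in their 3′ untranslated regions, whereas mRNAs of ribosomal proteins, glycolytic enzymes and the cytoskeleton are long-lived. In these tumours Vim, an intermediate filament protein, marks cells of mesenchymal state, and Epcam, an adhesion protein, marks epithelial cells.

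Of the 613 Malat1-poor barcodes, 274 had no Malat1 UMI at all. Vim reached 1000 CPM in 595 of them (97.1%), although the rule did not ask for it, and its summed level was 5308 CPM against 5327 CPM in the comparison barcodes. Most of the library was Vim-high: of its other kept barcodes 3910 also reached 1000 CPM of Vim and 569 did not. Cd9, the tetraspanin on which the cells were sorted, was at 2869 and 2333 CPM. The same Malat1 rule took 216 of 2550 kept whole-tumour barcodes (8.47%, interval 7.42 to 9.62), but just 7 of those had 1000 CPM of Vim. Among barcodes with at least 1000 CPM of Vim, Malat1-poor ones were thus 595 of 4505 (13.2%, interval 12.2 to 14.2) in the CD9hi library and 7 of 663 (1.06%, interval 0.426 to 2.16) in the whole tumour; with 1 library of each kind, sort and library cannot be told apart. In the whole tumour, 183 of the 216 (84.7%) held 100000 CPM or more of acinar markers, led by the chymotrypsinogen Ctrb1 at 235100 CPM, and are a different population.

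UMI totals of the 2 sets overlapped. Those of the Malat1-poor barcodes ran from 5595 at the 5th percentile over a median of 17800 to 42574 at the 95th percentile, against 10056, 22542 and 46017 in the comparison barcodes. They held fewer genes, with a median of 2366 per barcode against 4707. After each barcode was thinned to 2000 UMIs, the medians were 732 and 1079 genes (1 and 4 shallower barcodes left out), and at 5000 UMIs they were 1253 and 2028 (22 and 54 left out). Mitochondrial UMIs made up a median of 4.33% and 2.98%. Cytosolic ribosomal protein mRNAs made up a median of 30.5% and 14.4% of a barcode, and 533 of 613 Malat1-poor barcodes (86.9%) lay above the 95th percentile of the comparison barcodes.

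**Figure D1:**
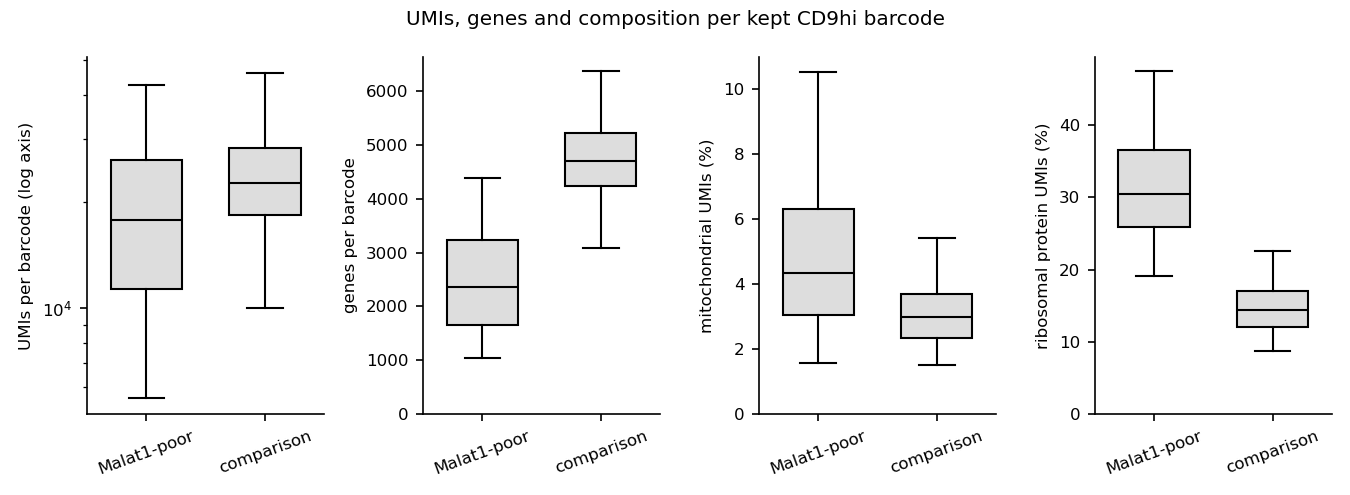
UMIs (log axis), detected genes, mitochondrial UMIs (%) and ribosomal protein UMIs (%) per barcode in the 613 Malat1-poor and the 3910 comparison barcodes of the CD9hi library. Boxes span the quartiles with the median, and whiskers the 5th to 95th percentiles; the UMI boxes overlap, while median genes are 2366 against 4707 and ribosomal protein shares 30.5% against 14.4%.

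Summed over each set, 8585 genes had a mean of at least 5 CPM and are called measured. Of these, 331 (3.86%) were at least 2-fold higher in the Malat1-poor barcodes, 4614 (53.7%) were at least 2-fold lower, and 1511 (17.6%) were at least 8-fold lower. The median log2 ratio over all measured genes was -1.17, so most genes were lower in CPM. Among the 2445 genes with a mean of at least 50 CPM the median was -0.25, and 712 (29.1%) were at least 2-fold lower. With ratios centred on the median of all 8585 measured genes (-1.17), 2221 genes were at least 2-fold higher and 2565 at least 2-fold lower. In UMIs per barcode, with no scaling to the total, 1235 of the 8585 genes (14.4%) were higher in the Malat1-poor barcodes and the median log2 ratio was -1.48. Long noncoding genes of the GENCODE M21 annotation were at least 8-fold lower in 66 of 170 cases, and pseudogenes in 2 of 132. Of the pseudogenes 39 were at least 2-fold higher, and their counts are uncertain because they share sequence with parent genes such as those of ribosomal proteins.

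The comparison barcodes were mixed in Epcam. Epcam was below 100 CPM in 562 of 613 Malat1-poor barcodes but in 1133 of 3910 comparison barcodes. The summed profile of the Malat1-poor barcodes was closer to the Epcam-low comparison barcodes (Pearson r 0.861 over 8585 genes on the log2(CPM + 5) scale) than to the Epcam-high ones (0.781); genes are not independent, and the values are descriptions. Against the 1133 Epcam-low barcodes, a comparison added after the data were seen, 77 of 8581 measured genes (0.897%) were at least 2-fold higher, 4657 (54.3%) at least 2-fold lower and 1330 (15.5%) at least 8-fold lower. The count of higher genes was thus smaller in this comparison, while the counts of lower genes were close to those above. Levels in the Epcam-low comparison barcodes are given below for the lists and for some of the genes named.

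Nuclear-retained noncoding RNAs were lower almost without exception. Of 24 listed genes 22 were matched and 14 were measured, of which 13 were at least 2-fold lower and 10 at least 8-fold lower, with a median log2 ratio of -4.71. Malat1 itself, on which the barcodes were chosen, is 1 of these members, so its part in the counts and the median was set by the rule. It was at 74.4 against 23706 CPM. Neat1, the scaffold of nuclear paraspeckles, was at 28.1 against 2280 CPM (log2 -6.34, interval -6.50 to -6.19), and the median Malat1-poor barcode had 0 CPM of it against 1966 CPM. Meg3, an imprinted RNA, was at 13.2 against 562 CPM, and Xist, which coats the inactive X chromosome, at 10.8 against 409 CPM. Kcnq1ot1 and Rian, both imprinted, were at 2.12 against 52.1 CPM and at 3.68 against 60.1 CPM. Oip5os1 was the exception at 39.4 against 52.3 CPM, and Pvt1 (11.4 against 28.2 CPM) and Tug1 (7.35 against 24.2 CPM) differed least after it. Without Malat1, the summed list lay below the 5th percentile of the comparison barcodes (1165 CPM) in 603 of 613 Malat1-poor barcodes (98.4%). Levels in Epcam-low comparison barcodes were close to these (Neat1 2247, Meg3 559 and Xist 538 CPM), and the list median was -4.63 there.

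The host genes of small nucleolar RNAs are noncoding too, but their spliced transcripts reach the cytoplasm, and they followed another pattern. Of 15 measured, 5 were at least 2-fold lower, 1 at least 8-fold lower and 1 at least 2-fold higher, with a median log2 ratio of -0.20. Gas5 was at 743 against 431 CPM and Snhg6 at 276 against 109.9 CPM, whereas Snhg5 was at 2.70 against 23.6 CPM. Against the Epcam-low barcodes the list median was -0.76 and 0 members were 2-fold higher.

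Genes listed for transcripts with detained introns, which are held in the nucleus until a last splicing step, were lower in 26 of 26 cases. Of them 12 were at least 8-fold lower, and the median log2 ratio was -2.78. UMIs were counted per gene, so detained and spliced transcripts of a gene are not told apart. Nktr was at 5.31 against 158 CPM (log2 -4.88). The splicing kinase Clk1 was at 4.00 against 78.6 CPM, the cyclin Ccnl1 at 8.33 against 197 CPM and Ogt, which adds N-acetylglucosamine to proteins, at 3.92 against 70.3 CPM. Rbm39, a splicing factor, had the highest level of the list in the comparison barcodes, at 27.3 against 355 CPM. Zfp207 was nearest to the comparison at 41.0 against 86.8 CPM. By contrast, SR and hnRNP splicing factors as a list had 8 of 28 members at least 2-fold lower and 0 at least 8-fold lower, with a median of -0.66. Hnrnpk, an abundant RNA-binding protein, was at 518 against 586 CPM, Hnrnpa1 at 374 against 226 CPM and Tra2b at 15.3 against 119 CPM.

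**Figure D2:**
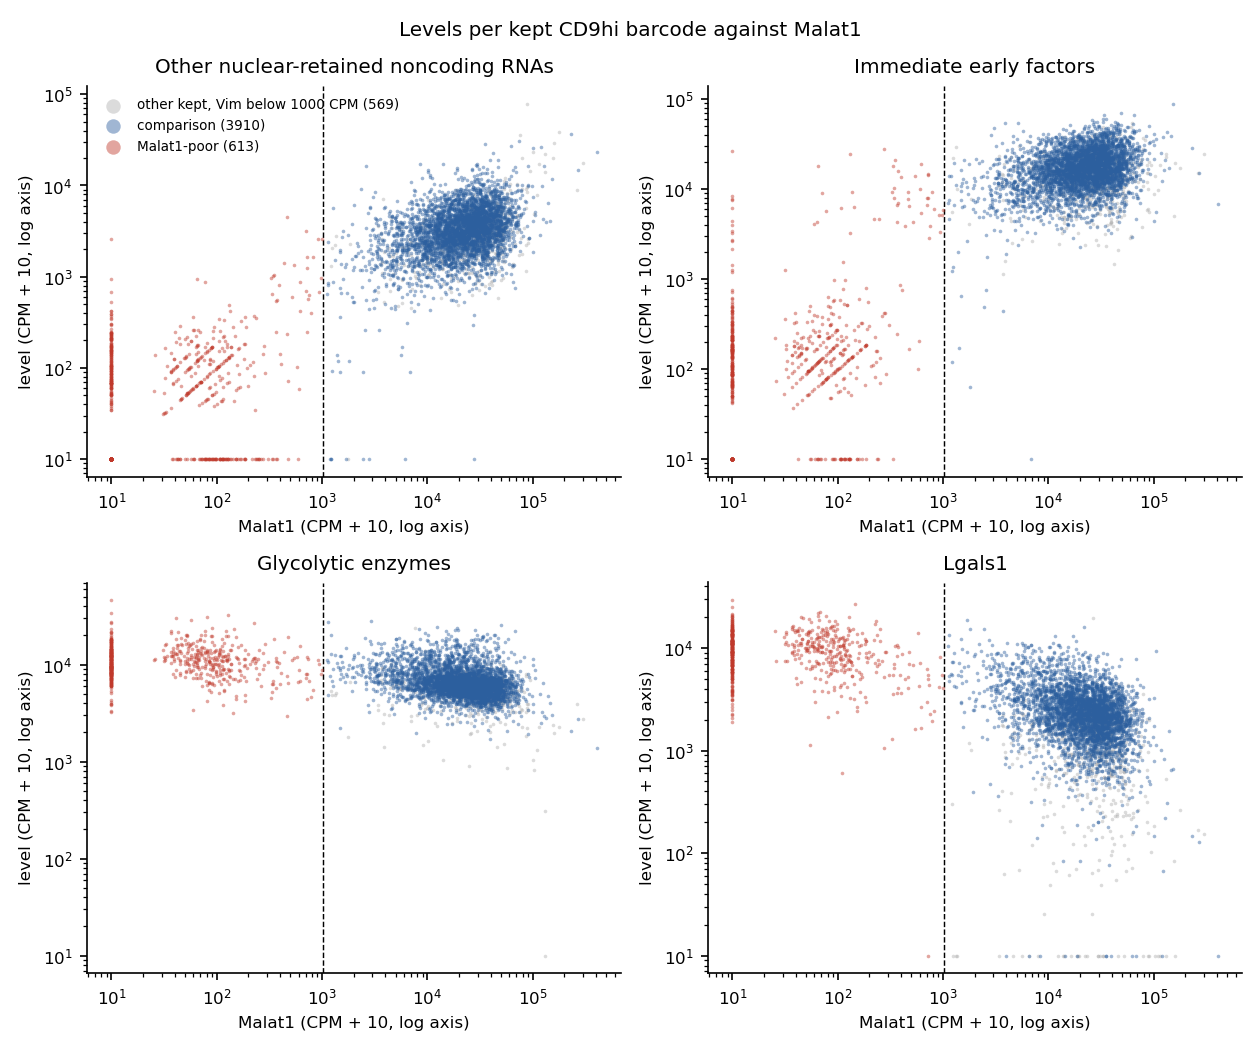
Each point is 1 kept CD9hi barcode, with Malat1 on the x axis and the summed level of a list, or of Lgals1, on the y axis (both as CPM + 10 on log axes); red points are Malat1-poor, blue points comparison barcodes and grey points other kept barcodes with Vim below 1000 CPM, and the dashed line is the 1000 CPM threshold. Most Malat1-poor barcodes lie below the comparison barcodes in other nuclear RNAs and immediate early mRNAs; most lie high in Lgals1, while the sets overlap in glycolytic mRNAs, where 30.2% exceed the 95th percentile of the comparison.

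Immediate early factors, transcription factors and regulators that cells switch on within minutes, had the lowest median of the pathway lists in this comparison. Against Epcam-low barcodes the median of the nuclear-retained list, which includes Malat1, was lower. All 38 measured members were at least 2-fold lower and 36 were at least 8-fold lower, with a median log2 ratio of -4.78. Ier3, the member with the highest level, was at 99.4 against 3372 CPM (log2 -5.08, interval -5.17 to -5.00). Klf6, a zinc finger factor, was at 22.1 against 1146 CPM, Jun at 33.6 against 1292 CPM, Fos at 32.2 against 1140 CPM and Atf3, a stress-induced factor, at 18.1 against 689 CPM. Btg2, an antiproliferative regulator, was at 5.64 against 332 CPM (log2 -5.87), and Hes1, a target of Notch signalling, at 6.70 against 321 CPM. Maff was nearest to the comparison at 19.04 against 91.9 CPM. Per barcode the summed list had a lowest value of 0, a median of 133 and a highest value of 27712 CPM in Malat1-poor barcodes, against a median of 16851 CPM in comparison barcodes, and 586 of 613 (95.6%) lay below the 5th percentile of the latter. Against Epcam-low barcodes 39 of 39 measured members were at least 2-fold lower, with a median of -4.37.

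mRNAs with AU-rich elements or driven by NF-kB, which include cytokines, chemokines and feedback inhibitors, were lower in 34 of 35 cases, 30 of them at least 8-fold, with a median log2 ratio of -4.57. The 4 shown here illustrate the element. Of the listed genes at least 8-fold lower at a mean of at least 50 CPM, they hold the most copies. The copies are those of TATTTAT in the 3′ untranslated region. Tnf, with 8 copies, lay below that mean and is not shown. The windows are from GENCODE M21 transcripts on GRCm38, another build than that of the counts; all lie in exonic 3′ untranslated sequence, are written 5′ to 3′ on the strand of the transcript, and the capitals mark the first copy of TATTTAT with 10 bases on either side.
Csf2: gggaccattaTATTTATttatatattt
Cxcl2: agagttcactTATTTATttatctatgt
Cxcl1: ttgagggtccTATTTATttatgtattt
Ptgs2: ctactgaccaTATTTATttatttatgt
The Csf2 window is chr11:54247363-54247389 on the minus strand, the Cxcl2 window chr5:90905317-90905343, the Cxcl1 window chr5:90892600-90892626 and the Ptgs2 window chr1:150105787-150105813, these 3 on the plus strand. Csf2, the cytokine GM-CSF, has 9 copies (overlapping ones counted) in 317 bases and was at 22.9 against 577 CPM. Cxcl2 and Cxcl1, neutrophil chemokines, have 7 and 6 copies and were at 6.21 against 194 CPM and at 4.98 against 159 CPM. Ptgs2, the inducible cyclooxygenase, has 6 copies in 2445 bases and was at 18.4 against 175 CPM.

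In the same list, Hbegf, a growth factor of the EGF family and its member with the highest level in the comparison barcodes, was at 43.1 against 1193 CPM. Vegfa was at 3.92 against 180.3 CPM, Pim1, a kinase, at 3.60 against 186 CPM and the NF-kB inhibitor Nfkbia at 13.9 against 446 CPM. Tnf was at 0.327 against 25.8 CPM, but at 2.65 CPM in Epcam-low barcodes. The members nearest to the comparison encode the urokinase plasminogen activator, Plau, at 18.4 against 25.9 CPM, and its receptor Plaur, at 206 against 540 CPM.

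Growth arrest and p53 target mRNAs were lower in 14 of 15 cases, 12 at least 8-fold, with a median of -3.64. Trp53inp1 had the lowest ratio at 0.0817 against 10.5 CPM (1 UMI in the Malat1-poor barcodes), Gadd45a was at 8.25 against 345 CPM, Cdkn1a, the cell cycle inhibitor p21, at 9.23 against 246 CPM, and Ccng1 at 12.7 against 18.2 CPM. The tumours of both libraries carry Trp53frt/frt, so the list names genes and not the activity of p53. Transcription and chromatin regulators were lower in 34 of 34 cases, 26 at least 8-fold, with a median of -3.72. The histone methyltransferase gene Setd2 was at 1.31 against 40.4 CPM, the transcription factor gene Runx1 at 12.4 against 248 CPM, and Chd4, a nucleosome remodeller with the highest mean level of the list, at 83.8 against 219 CPM. Of 88 measured genes named Zfp, 78 were at least 2-fold and 44 at least 8-fold lower. Heat shock mRNAs ranged widely: the inducible Hspa1a was at 4.41 against 86.9 CPM and Dnajb1 at 18.2 against 154 CPM, while the constitutive Hsp90ab1 was at 2897 against 3307 CPM and the mitochondrial chaperonin gene Hspd1 at 544 against 327 CPM. In all 10 of 15 heat shock members were at least 2-fold lower, with a median of -1.35. Among all measured genes 53.7% were, with a median of -1.17. Interferon-response mRNAs were lower in 6 of 7 measured cases, with Ifit1 at 0.163 against 12.7 CPM and Bst2 at 80.2 against 103 CPM.

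The genes given as markers of these barcodes, which were picked in the same data, were higher. Lgals1, the lectin galectin-1, was at 10199 against 2992 CPM (log2 1.77, interval 1.76 to 1.78), and lay above the 95th percentile of the comparison barcodes in 490 of 613 Malat1-poor barcodes (79.9%). Gapdh, the glycolytic dehydrogenase, was at 5320 against 2573 CPM (log2 1.05), and S100a6, a small calcium-binding protein, at 27895 against 16744 CPM (log2 0.74). In Epcam-low comparison barcodes they stood at 4129, 3249 and 14800 CPM, so Gapdh and S100a6 were less than 2-fold higher there. Counted as UMIs per barcode, Lgals1 had 204 against 73.8, Gapdh 106 against 63.5 and S100a6 557 against 413, whereas Vim had 106 against 131.

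Medians of the S100, galectin and annexin list and of the glycolytic list lay closer to the comparison than Lgals1, Gapdh and S100a6 did. The first list includes Lgals1 and S100a6 and the second Gapdh, so these markers are part of their counts and sums. How long each mRNA lasts was not measured. Of 19 S100, galectin and annexin genes 2 were at least 2-fold higher and 3 at least 2-fold lower, with a median log2 ratio of -0.33. S100a4 was at 598 against 191 CPM (434 CPM in Epcam-low barcodes), Anxa2 at 2790 against 3082 CPM and S100a14 at 2.70 against 33.4 CPM. In Epcam-low barcodes S100a14 was at 1.79 CPM, so its direction turned. Of 15 glycolytic enzymes 3 were at least 2-fold higher, with a median of 0.56, and the sum of the list was at 11887 against 7312 CPM. Hk2, the hexokinase isoform that is induced by growth signals, was the one glycolytic gene at least 2-fold lower, at 8.66 against 267 CPM (log2 -4.94), while Hk1 was at 47.8 against 63.7 CPM. Ldhb had the largest ratio of the list at 17.7 against 6.87 CPM. Against Epcam-low barcodes 0 of 15 glycolytic genes were 2-fold higher and the median was 0.32.

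Actin and tubulin cytoskeleton genes had 3 of 31 members at least 2-fold higher and 3 at least 2-fold lower, with a median of 0.26. Tmsb4x, which binds free actin, was at 14234 against 11199.5 CPM. Tpm2, a tropomyosin, was at 609 against 224 CPM and Tubb2a at 16.2 against 67.1 CPM. Translation factors had a median of 0.38, with 1 of 23 at least 2-fold higher, Eef1g at 1231 against 543 CPM, and 1 at least 2-fold lower, Eif5 at 140.3 against 533 CPM. Tpt1 was at 11011 against 9631 CPM. Proteasome subunits had 0 of 25 members 2-fold away in either direction, with a median of 0.12 and a range of -0.68 to 0.75 (Psmd12 and Psma7). Lysosomal proteins had a median of -0.05, with Ctsl at 2688 against 1985 CPM and Ctsh, the one member at least 2-fold lower, at 43.0 against 211 CPM. Epcam-low barcodes held 56.7 CPM of Ctsh, and 0 of 18 members were 2-fold lower there.

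Ribosomal protein and nuclear-encoded respiratory chain mRNAs had ratios above 0 in each measured gene. All 81 measured ribosomal protein genes had ratios above 0 (0.14 to 1.35, median 0.93), and 32 were at least 2-fold higher. Rpl32 was at 10652 against 4371 CPM and Rps12 at 7694 against 3064 CPM. Ribosomal protein genes have many near-identical pseudogenes, so the counts of single ones are uncertain. Of 42 nuclear-encoded respiratory chain genes 10 were at least 2-fold higher, with a median of 0.79, and Uqcrb, a subunit of complex III, was at 582 against 244 CPM. The 13 mRNAs encoded in mitochondrial DNA had a median of 0.40 and 0 were 2-fold away, with mt-Cytb at 7809 against 5888 CPM. Among them mt-Nd1 had the lowest ratio, just below 0, at 4033 against 4083 CPM (log2 -0.018). Against Epcam-low barcodes 5 of 81 ribosomal protein and 2 of 42 respiratory chain genes were 2-fold higher, with medians of 0.74 and 0.70. With ribosomal protein genes left out of the CPM base, the median of all 9156 measured genes was -0.90. Of these genes, 708 were at least 2-fold higher, with ribosomal protein genes still counted among them.

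Redox and iron storage genes had 3 members higher and 5 lower of 25, with the ferritin gene Fth1 at 5882 against 2875 CPM, Selenoh at 342 against 134 CPM and Hmox1, the stress-inducible haem oxygenase, at 3.35 against 59.7 CPM. Genes of ER chaperones and of the translocon had a median of 0.37 and 1 of 32 at least 2-fold lower, the inducible chaperone Hspa5 at 284 against 608 CPM, while Ssr4 was at 507 against 264 CPM. Secreted matrix and protease genes were at least 2-fold lower in 16 of 32 cases and higher in 1, with a median of -1.12, near the 53.7% and -1.17 of all genes. Against Epcam-low barcodes 22 of 33 were lower, with a median of -1.63, beside 54.3% and -1.16 for all genes in that comparison. The list held Fn1 (fibronectin) at 404 against 2734 CPM, Timp3 at 4.41 against 98.5 CPM, Spp1 (osteopontin) at 3909 against 6957 CPM and Tgfbi at 114 against 48.2 CPM (121 CPM in Epcam-low barcodes). Membrane receptors and tetraspanins were at least 2-fold lower in 18 of 32 cases, also near the 53.7% of all genes, and higher in 1. Jag1, a Notch ligand named in the study's title, had the lowest ratio of that list at 14.3 against 157 CPM (log2 -3.46), and the tetraspanin Cd63 the highest at 2814 against 1324 CPM.

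**Figure D3:**
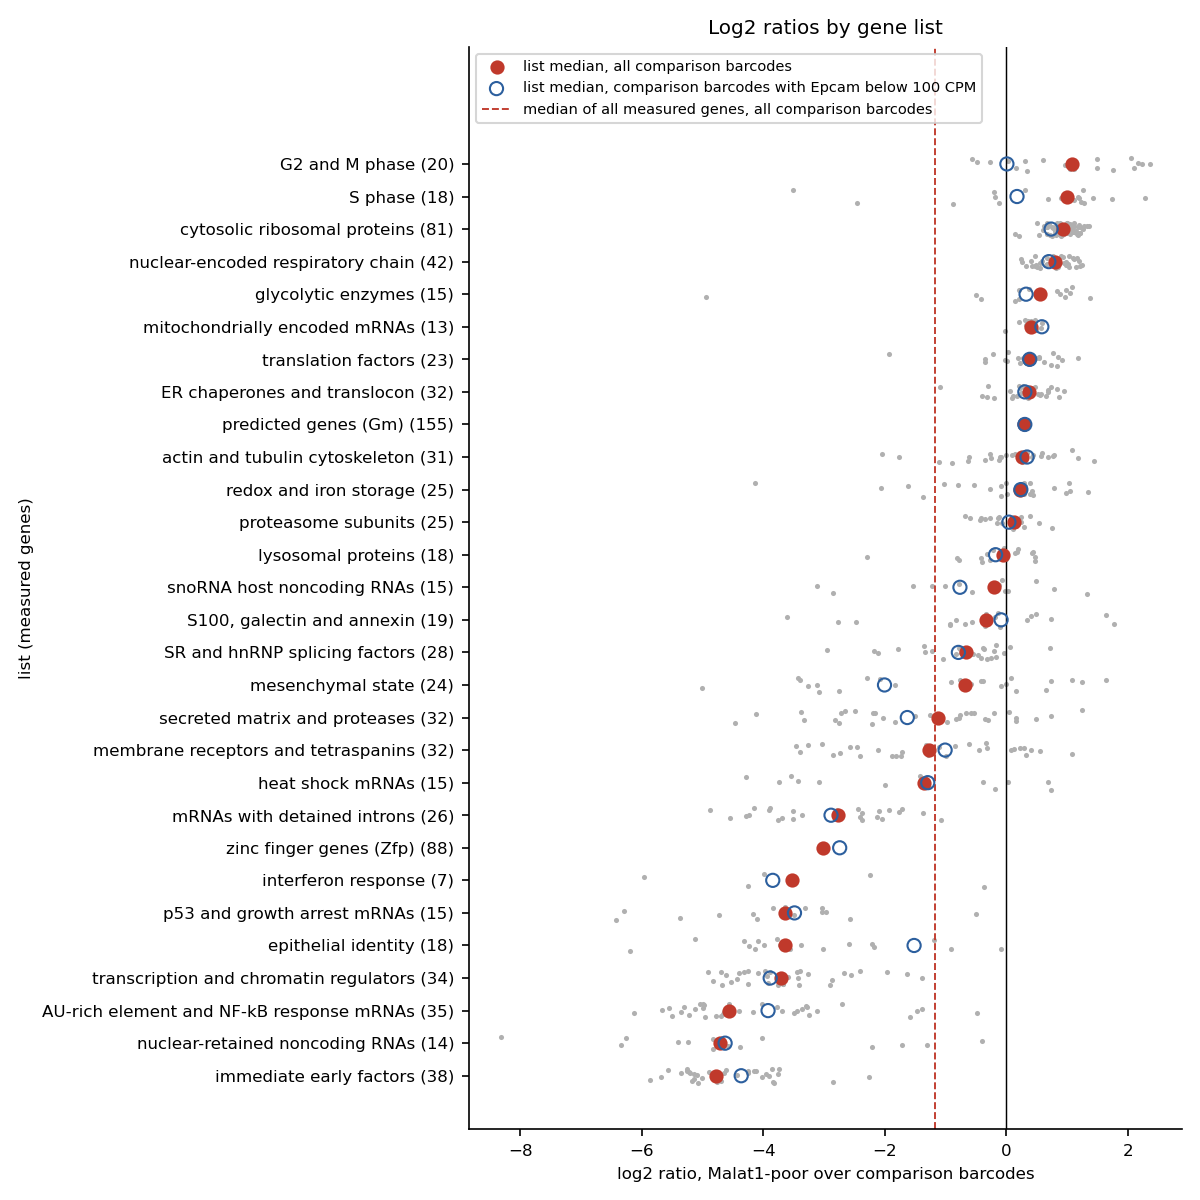
Log2 ratio of Malat1-poor over comparison barcodes for each gene list with 5 or more measured genes (number in brackets). Grey points are single genes, red points list medians, open blue points list medians against comparison barcodes with Epcam below 100 CPM, and the dashed line is the median of all measured genes (-1.17); single genes are not drawn for the Zfp and Gm name classes. Immediate early and nuclear RNAs (Malat1 included) lie at the low end, at -4.78 and -4.71. The medians of the 2 cell cycle lists move to near 0 in the Epcam-low comparison.

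Markers of epithelial identity were at least 2-fold lower in 16 of 18 measured cases, with a median of -3.64, but several of these differences were absent against the Epcam-low barcodes. Krt7 was at 50.3 against 802 CPM, yet at 49.1 CPM in Epcam-low barcodes, and Krt18 at 1631 against 3050 and 1670 CPM. Krt8 was at 1532 against 1628 CPM, and at 928 CPM in Epcam-low barcodes. Sox9, a ductal transcription factor, was at 16.4 against 577 CPM and was still at 465 CPM in Epcam-low barcodes, so it differed in both comparisons. Cldn4, a claudin with the lowest ratio of the list, was at 2.45 against 182 CPM and at 10.1 CPM in Epcam-low barcodes. The list median against Epcam-low barcodes was -1.52, with 7 of 13 measured members at least 2-fold lower, a share near the 54.3% of all genes in that comparison.

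Genes of the mesenchymal state ranged widely, with a median log2 ratio of -0.68, and of -2.01 against Epcam-low barcodes. The actin-binding protein gene Tagln was at 113 against 53.2 CPM and Sparc, a matrix protein, at 533 against 319 CPM, although Epcam-low barcodes held 137 and 767 CPM. Of the transcription factors of the list, Zeb2 was at 7.19 against 78.1 CPM, Zeb1 at 4.17 against 40.4 CPM, Snai1 at 1.47 against 13.1 CPM, Twist1 at 22.4 against 110.1 CPM and Prrx1 at 40.9 against 53.6 CPM (143 CPM in Epcam-low barcodes). Tnfaip6, a secreted hyaluronan-binding protein, had the lowest ratio of the list at 7.11 against 231 CPM. Of 24 measured genes 10 were at least 2-fold lower, a smaller share than the 53.7% of all genes, and 3 were higher. Against Epcam-low barcodes the counts were 15 and 0 of 24, beside 54.3% and 0.897% of all genes.

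As lists, cell cycle mRNAs were higher, while against Epcam-low barcodes their list medians were 0.01 and 0.18. Of 20 genes of the G2 and M phases 11 were at least 2-fold higher and 0 at least 2-fold lower (median 1.08), and of 18 S phase genes 9 were higher and 2 lower (median 1.00). Prc1 had the lowest ratio of the G2 and M phase list, at 16.7 against 24.8 CPM (log2 -0.57). Ube2c, a ubiquitin-conjugating enzyme of mitosis, was at 114 against 27.4 CPM, Bub1, a checkpoint kinase, at 14.7 against 2.87 CPM and Rrm2, a subunit of ribonucleotide reductase, at 44.5 against 9.19 CPM. Against Epcam-low barcodes 2 of 22 G2 and M phase genes were 2-fold higher and 2 lower (median 0.01), and 3 of 18 S phase genes were higher and 2 lower (median 0.18). Of all measured genes 0.897% were 2-fold higher in that comparison, and their median was -1.16. Bub1 and Rrm2 stayed at least 2-fold higher there (log2 1.06 and 1.11), and Ube2c was at 0.95. Cdt1, a replication licensing factor whose level swings within each cycle, was at 1.47 against 17.3 and 17.0 CPM and was thus lower in both. Dut was at 210 against 97.0 CPM.

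The 15 lowest ratios among 2445 genes with a mean of at least 50 CPM began with Iapp, Malat1, Pdgfb, Neat1 and Ddit4. Iapp, an islet hormone gene, had 3 UMIs in the Malat1-poor barcodes, and 100% of its UMIs in the comparison came from the richest 1% of barcodes (39), so its ratio describes few barcodes. Pdgfb, a growth factor, was at 1.96 against 175 CPM and Ddit4, an inhibitor of mTORC1 signalling, at 1.55 against 125 CPM. The others were Cldn4, Nrip1, Btg2, Klf9, Mab21l4, Klf6, Bhlhe40, Pim1, Smad7 and Hes1, with log2 ratios from -6.19 to -5.58. Nrip1, Klf9, Klf6, Bhlhe40 and Hes1 encode regulators of transcription, and Smad7 an inhibitor of TGF-beta signalling. The 15 highest ran from Arhgdib, at 138 against 19.9 CPM (log2 2.79), and Prdx4, a peroxiredoxin of the ER, at 302 against 50.8 CPM, to Ecscr at 100.02 against 26.8 CPM (log2 1.90). Between them lay Cst6, Lgals7, Fabp5, Birc5, Nefl, Gchfr, Cenpa, Nt5dc2, Ly6a, Ube2c, Gap43 and Rbp4. In each of these 15 genes the ratio against Epcam-low barcodes was smaller; it was at least 1 in log2 for 11 of them, and Ly6a changed least (2.06 and 1.99).

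The ratio of a gene went with the length of its transcript. For the 8272 measured protein-coding genes, each matched by identifier to its GENCODE M21 transcript with the longest coding sequence, the median log2 ratio was 0.53 for 274 transcripts under 750 bases, -0.25 for 891 of 1000 to 1500 bases, -1.03 for 1817 of 2000 to 3000 bases and -2.33 for 1573 of 5000 bases or more. The share of genes at least 8-fold lower was 2.92% in the shortest class and 32.5% in the longest. Without ribosomal protein genes the shortest class had a median of 0.47 (243 genes), and against Epcam-low barcodes the shortest and longest classes had medians of 0.48 and -2.29. Across genes the Spearman correlation of ratio and length was -0.45, that with coding length -0.40 and that with 3′ untranslated length -0.31; these are descriptions over genes that share 2 pools of barcodes. Single genes departed from it. The transcript of Mki67 is 10061 bases long and its ratio was 0.34, whereas that of Cxcl1 is 953 bases long and its ratio was -4.98. The chromatin list had the longest transcripts (median 8268.5 bases), while immediate early factors at a median of 2435.5 bases were shorter than the 2855 bases of all measured genes.

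**Figure D4:**
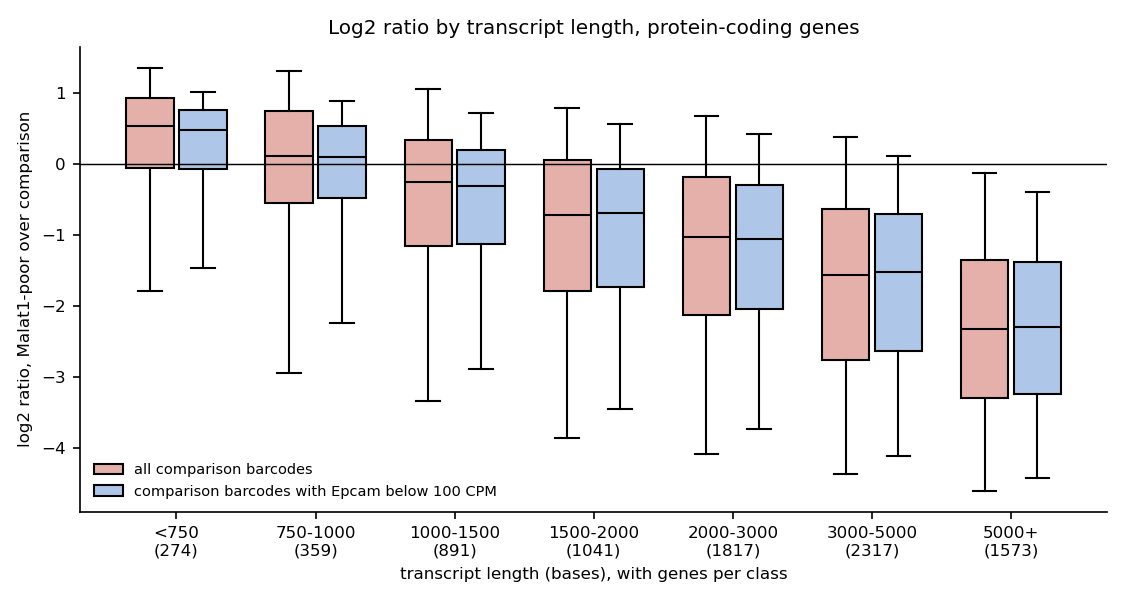
Log2 ratio of Malat1-poor over comparison barcodes (y axis) for 8272 protein-coding genes in 7 classes of transcript length in bases (x axis, number of genes in brackets); boxes span the quartiles with the median, whiskers the 5th to 95th percentiles, and the second box of a class is the comparison with Epcam-low barcodes. Medians decline from 0.53 under 750 bases to -2.33 from 5000 bases.

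TATTTAT, a core AU-rich motif, was searched on the transcript strand in 8155 3′ untranslated regions; copies may overlap each other. It occurred in 2316 of them (28.4%), and those regions were longer (median 2010 against 671 bases). Genes with at least 1 copy had a median log2 ratio of -1.80 and genes with none -0.95. Within regions of 1000 to 2000 bases, where 33.7% held the motif, the medians were -1.74 and -1.32. Within 250 to 500 bases, where 10.0% held it, they were -0.64 and -0.73, and -0.77 and -0.72 against Epcam-low barcodes, so the order of the medians changed with the comparison. The 20 genes with at least 3 copies in 500 to 1000 bases had a median of -3.44, against -1.06 for the 1343 with none. Against Epcam-low barcodes these medians were -2.69 and -1.09. Cxcl1, Cxcl2 and Tnf of the AU-rich list are among the 20, so the value is not independent of that list. The contrast was smaller in longer regions, at -2.19 against -1.32 for 1000 to 2000 bases and -2.38 against -1.62 from 2000 bases. The motif was present in 26 of 35 genes of the AU-rich list, which was drawn up for such genes, in 17 of 38 immediate early factors, in 0 of 19 S100, galectin and annexin genes and in 2 of 79 ribosomal protein genes. A match describes the sequence alone.

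Along Malat1, the levels of other nuclear and short-lived transcripts differed most between low classes. Kept CD9hi barcodes with 0, above 0 to 100, and 100 to 500 CPM of Malat1 (274, 207 and 112 barcodes) held 262, 321 and 1298 CPM of immediate early mRNAs in sum. The 20 barcodes of 500 to 1000 CPM, just inside the threshold, held 6749 CPM, the 42 barcodes of 1000 to 2000 CPM, just outside it, 8591 CPM, and the 2586 above 20000 CPM held 19553 CPM. Nuclear RNAs other than Malat1 went from 74.9 and 88.0 and 175 CPM to 1214, 1338 and 4157 CPM over the same classes. The widest gaps thus lay between 100 and 1000 CPM of Malat1, below the threshold used, and the 20 barcodes just inside were closer to those just outside than to the rest. Lgals1 went the other way, from 10421 CPM at 0 Malat1 to 5791, 6013 and 2238 CPM in the last 3 of these classes, and Vim stayed between 4319 and 6270 CPM in every class.

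**Figure D5:**
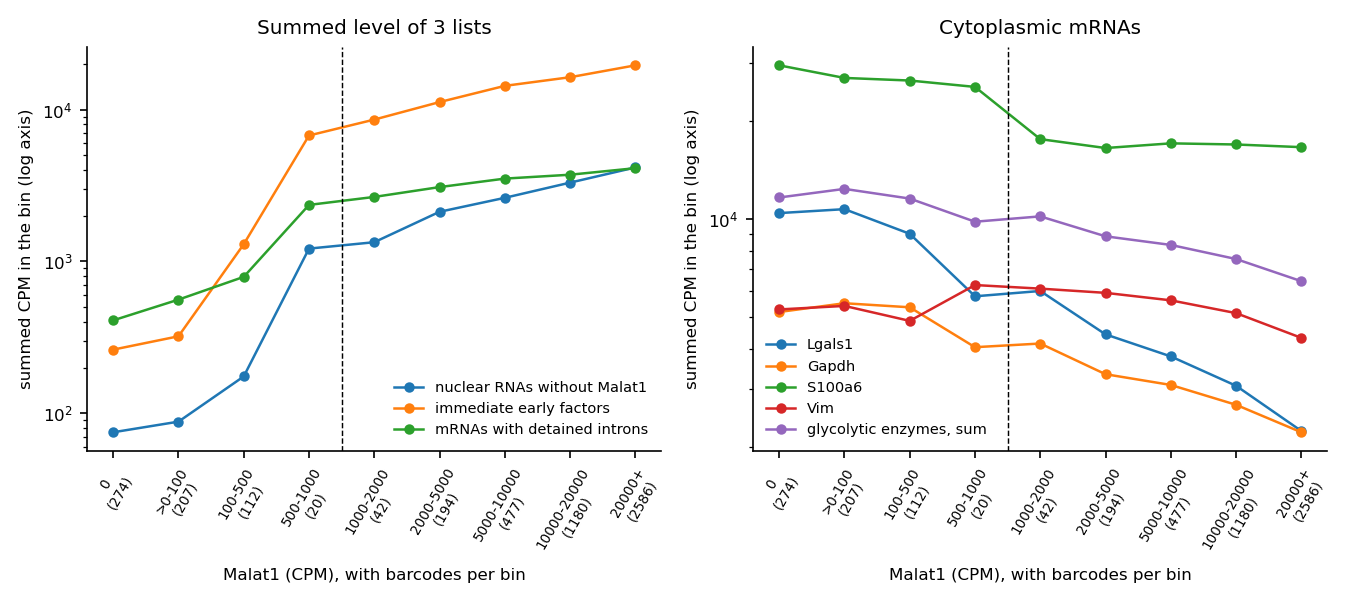
Summed CPM (log axis) of lists and genes in classes of Malat1 CPM over all 5092 kept CD9hi barcodes, with barcodes per class in brackets and the 1000 CPM threshold dashed. The left panel shows nuclear RNAs without Malat1, immediate early factors and mRNAs with detained introns, and the right panel cytoplasmic mRNAs; immediate early mRNAs go from 262 CPM at 0 Malat1 to 6749 CPM at 500 to 1000 and 19553 CPM above 20000.

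The spread among the Malat1-poor barcodes differed widely between genes. Over 1866 genes of at least 50 CPM the dispersion, the squared deviation from a common share of UMIs relative to counting noise, had a median of 1.96; it grows with a gene's level. It was 336 for Clu, the secreted chaperone clusterin, with a median of 444 CPM, a 95th percentile of 24679 CPM and a highest value of 57763 CPM per barcode. mt-Rnr2 (233), a mitochondrial ribosomal RNA, Spp1 (222), Cks2 (140) and S100a6 (118) followed. Cks2 had a median of 0 and a highest value of 15912 CPM per barcode. The 51 Malat1-poor barcodes with at least 100 CPM of Epcam held 10495 CPM of Clu and 592 CPM of Krt7, against 2891 and 19.6 CPM in the other 562. They also held 2273 against 550.0 CPM of immediate early mRNAs, both below the 17820 CPM of the comparison barcodes.

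Split at their own median of UMIs, the deeper 306 Malat1-poor barcodes held 702 CPM of G2 and M phase mRNAs and the other 307 held 205 CPM, and Fn1 was at 263 and 774 CPM. Immediate early mRNAs were at 535 and 924 CPM, and nuclear RNAs without Malat1 at 131 CPM in both. Split at the median mitochondrial share, immediate early mRNAs were at 343 CPM in the 306 barcodes with more mitochondrial UMIs and at 827 CPM in the other 307. Barcodes with no Malat1 UMI held 409 CPM of mRNAs with detained introns and those with some held 705 CPM, and Lgals1 was at 10421 and 10062 CPM.

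Markers of other cell types were sparse. In CPM, the summed level in Malat1-poor and comparison barcodes was 7.44 and 50.05 for 9 erythroid genes, 3.92 and 22.7 for 13 platelet genes, 4.66 and 6.09 for 11 neutrophil genes, 4.58 and 118 for 13 macrophage genes, 0.572 and 1.19 for 10 T or NK cell genes, 0.245 and 2.04 for 6 mast cell genes and 0 and 0.539 for 6 B cell genes. In the Malat1-poor barcodes 7 of the 9 erythroid markers and 9 of the 13 platelet markers had no UMI. Among the genes that define red cells and platelets, which carry no nucleus, Hbb-bs, Hbb-bt, Alas2 and Pf4 were at 0, Hba-a1 was at 0.409 CPM and Ppbp at 0.0817 CPM, and the erythroid sum was almost all Bpgm (7.03 CPM). Fibroblast markers summed to 99.9 against 164 CPM. Of these Dcn made up 68.1 against 22.5 CPM (60.1 CPM in Epcam-low barcodes), while 3 of 4 measured fibroblast markers were at least 2-fold lower. Per barcode the upper quartile of the fibroblast sum was 81.8 against 18.5 CPM and the highest value 4346 against 72660 CPM. Endothelial markers summed to 32.4 against 92.2 CPM, with 1 measured marker at least 2-fold higher and 1 lower. Acinar markers summed to 8.74 against 79.7 CPM and islet markers to 1.06 against 272 CPM. The median comparison barcode held 0 CPM of macrophage, acinar and islet markers, and the highest values were 75146, 167093 and 371944 CPM. These 3 comparison sums thus do not describe a typical barcode. Tumour keratins and Vim were by far the larger signal, and the barcodes are named here by their low Malat1 and not as a cell type.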

How the data were processed

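Raw UMI counts per gene and barcode were deposited for 2 libraries, with no normalization by the authors, per the file headers. The submitters' processing notes name GRCm39 and Cell Ranger 7.0.0, while the matrix headers give version 6.1.2; whether intronic reads were counted, which sets how much nuclear RNA is seen, is not given in the sources used here. Of 55361 features, 1705 share a symbol and were kept apart by identifier, so Aldoa, Ddit3 and Snhg4 could not be matched; Nespas, Gm26917, Ahsp and Mrvi1 were not matched either. Groups came from the sorted population in the labels.

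UMIs were summed over each set of barcodes (12238100 in the Malat1-poor and 96430158 in the comparison barcodes), 0.5 was added to each sum, and log2 ratios of shares of UMIs were taken for genes with a mean of at least 5 CPM over both sets, so a gene could pass through 1 set alone. Intervals are conditional binomial, at a level of 95%, and cover counting error only. Called means at least 2-fold; with 1 library of each kind no test was made. The members, the lists and the genes were chosen with earlier results of these data known. Genes named are the markers given with the barcodes, Malat1, Vim, Cd9, Jag1 and the reporters, the 15 highest and 15 lowest ratios at a mean of at least 50 CPM, and from each list the members with the highest level or the most extreme ratio; the other genes named were chosen after their values were seen. Doublets were not removed; Scrublet scores (scanpy 1.11.5) served as an alternative. The ratio code was tested on simulated counts. Python 3.11.15, numpy 2.4.6, scipy 1.17.1 and pandas 2.3.3 were used. Transcript lengths and 3′ untranslated sequences are from GENCODE M21 (GRCm38), matched by identifier for 8272 of 8272 measured protein-coding genes; no coordinates of the counted build were used. Some items of the genotype and of the gene lists are not reported here.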

Additional observations from a re-analysis of the deposited data

How the results depend on the processing

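The results were recomputed under 15 alternatives, of which 3 were added after seeing the data: a comparison with Epcam below 100 CPM, members with at least 1000 CPM of Vim, and a CPM base without ribosomal protein genes. Counts of genes at least 2-fold higher (331) became 507 against comparison barcodes of like UMI totals (11348 to 26255), 2221 with ratios centred on the median gene, 135 among genes of at least 50 CPM, 797 at 1.5-fold and 77 against Epcam-low barcodes. With ribosomal protein genes left out of the CPM base, but still counted as genes, the count was 708. Counts of genes at least 2-fold lower (4614) became 2565 with centring and 712 of 2445 (29.1%) at 50 CPM. There 4 nuclear-retained RNAs, Malat1 among them, were lower. Higher glycolytic genes (3) were 5 with the highest doublet scores removed, 5 with no condition on Vim, 7 at like UMI totals, 12 with centring, 1 at 50 CPM, 7 at 1.5-fold, 0 against Epcam-low barcodes and 7 without ribosomal protein genes. Higher cytoskeleton genes (3) were 22 with centring, 7 at 1.5-fold, 1 against Epcam-low barcodes and 5 without ribosomal protein genes, and higher S100, galectin and annexin genes (2) were 8 with centring and 1 against Epcam-low barcodes. Centring, which adds 1.17 to every log2 ratio, gave 0.054 for the median of the secreted matrix list, 0.076 for Hspa5 and 0.094 for Zfp207. Against Epcam-low barcodes the ratio was 0.53 for Iapp (3 and 6 UMIs), 0.60 for S100a14 and -0.086 for Tgfbi. Sign changes were counted only where the main value was at least 2-fold in either direction. Over all alternatives these were 1 of 406 list medians and 5 of 1339 values of named genes. Smaller ratios that changed sign, as with centring, are not in these counts. Removing the 207 highest doublet scores took 5 of the Malat1-poor and 198 of the comparison barcodes. Single genes of few UMIs are limited by depth, as their intervals show. No paired analysis was possible because each group had 1 library.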
